A study of Mus musculus with 6 samples.

Results

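The MHC class I antigen presentation genes and the immunoproteasome genes were followed in primary mouse renal fibroblasts that were cultured alone or with Th17 cells. The group held 10 genes, chosen by symbol from the 34745 rows of the deposited gene table: the classical heavy chains H2-K1 and H2-D1, the light chain B2m, the peptide transporter subunits Tap1 and Tap2, the loading factor Tapbp, the immunoproteasome subunits Psmb8, Psmb9 and Psmb10, and the regulator Nlrc5. RNA sequencing covered 3 libraries of fibroblasts alone and 3 libraries of fibroblasts after 24 h of coculture, in which Th17 cells sat in an insert with 0.4 µm pores above the fibroblasts and only the lower chamber was collected. The fibroblasts of both groups were wild type (WT) and came from digested kidney tissue. The study's methods name Balb/c as the strain of its mice without tying it to the fibroblasts, and an age was not given in the sources used here. The Th17 cells had been induced in culture from splenic CD4+ T cells with IL-1β, IL-6, IL-23 and an antibody against IFN-γ, and the fibroblasts alone were labelled as untreated. The sources do not say if replicate libraries stem from different mice or cultures, so the p-values measure the spread between these libraries, which may be technical.

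MHC class I molecules carry short peptides from inside the cell to its surface, where CD8+ T cells read them. The proteasome cuts proteins into peptides, the TAP transporter moves the peptides into the endoplasmic reticulum, tapasin and its partners load them, and a heavy chain paired with β2-microglobulin presents them. Interferon induces much of this machinery, including 3 catalytic subunits that replace their constitutive counterparts in newly built proteasomes and the transactivator NLRC5, which acts on class I promoters through a complex with RFX factors. Most of these genes lie in the MHC on mouse chromosome 17, and renal fibroblasts, like most nucleated cells, express class I molecules.

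The upstream sequences of the class I genes are shown first because the classical heavy chains and B2m held motifs that are known for class I control. Of the 10 genes, 8 had a RefSeq upstream window (up to 250 bases before the start site, build GRCm38.p6), all except Tap2 and Nlrc5. In the windows below, capitals mark, on the printed or the opposite strand, a kappa B site of the 10-base consensus, an interferon regulatory factor core (AANNGAAA) and a CCAAT box. The H2-K1 window lies at chr17:34000348-34000597 on the minus strand and the B2m window at chr2:122147437-122147685 on the plus strand.
H2-K1: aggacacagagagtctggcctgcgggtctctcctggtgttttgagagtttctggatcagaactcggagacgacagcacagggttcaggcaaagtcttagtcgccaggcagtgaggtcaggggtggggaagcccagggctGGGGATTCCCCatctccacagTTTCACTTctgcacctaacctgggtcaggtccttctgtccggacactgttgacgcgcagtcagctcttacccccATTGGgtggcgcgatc
B2m: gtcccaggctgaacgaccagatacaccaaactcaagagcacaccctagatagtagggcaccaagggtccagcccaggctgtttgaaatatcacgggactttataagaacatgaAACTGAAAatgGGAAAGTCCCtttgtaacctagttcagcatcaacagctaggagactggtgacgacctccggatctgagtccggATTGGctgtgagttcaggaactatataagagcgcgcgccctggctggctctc

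H2-K1, H2-D1 and B2m each held all 3 motifs, a combination found in 0.381% of the 32851 promoters of the table. Singly, the interferon regulatory factor core was found in 3 of the 8 members and in 21.3% of all promoters, the kappa B site in 3 of 8 and in 7.25%, and the CCAAT box in 6 of 8 and in 33.8%. The windows of Psmb9 and Tap1 overlap on opposite strands, and their CCAAT box is the same site, counted for both. Members were counted by gene and the background by promoter, and a gene such as H2-K1 can have more than 1 promoter. In several heavy chain genes the kappa B site and the interferon core lay within 1 element of 30 bases, shown here with the same capitals for genes whose elements align without a gap.
H2-K1: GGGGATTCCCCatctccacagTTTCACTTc
H2-D1: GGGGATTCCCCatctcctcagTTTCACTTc
H2-Q4: GGGGATTTCCCatctccccagTTTCACTTc
H2-Q6: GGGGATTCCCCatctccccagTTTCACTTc

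The elements lie at chr17:34000429-34000458 on the minus strand for H2-K1 and, on the plus strand, at chr17:35262923-35262952 for H2-D1, chr17:35379443-35379472 for H2-Q4 and chr17:35424677-35424706 for H2-Q6. With positions counted from 1 at the 5′ end and H2-K1 as the reference, H2-D1 carried A18T, H2-Q6 carried A18C, and H2-Q4 carried C8T, inside the kappa B site, and A18C. A GAS motif (TTCNNNGAA), known from interferon-responsive promoters, was found in 7.02% of all promoters and among the members only in Psmb8. The upstream windows of Psmb10, Tap1, Psmb9 and Tapbp held neither the interferon core, the kappa B site nor a GAS motif. By the RefSeq start sites used, the windows of H2-D1, Psmb8, Psmb9 and Tapbp lay inside the gene spans given below. That of Tapbp began at chr17:33919228, in a span that begins at 33915899. These windows need not lie upstream of every transcript that was counted, and sequence before other start sites was not searched. These are matches of letters in the C57BL/6J reference sequence, and neither the sequence of the fibroblasts nor binding was measured.

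Each library held between 12050529 and 13209581 counts, and 13088 genes had enough counts to be tested, all 10 members among them. The count of a gene was divided by the library total after TMM scaling and is given as CPM, the number of counts scaled to a common library size. A gene was taken as changed past the threshold where edgeR gave an adjusted p below 0.05 together with a change of more than 2-fold. The libraries carried strong fibroblast markers such as Col1a1 and Pdgfra, with a summed level of 12 markers of 36061 to 37920 CPM alone and 15959 to 17913 CPM in coculture. Of these markers 4, with Col3a1 first, were lower past the threshold and Dcn was higher. Among all genes tested the shares were 7.78% lower and 3.87% higher. At an adjusted p below 0.05 alone, 9 of the 12 were lower and 1 was higher, beside 20% and 17.1% of all genes tested. Cocultured replicate 3 differed from its group's other libraries by more than any other pair differed, with a chi-square per gene of 14.0 to 15.2 against 6.38 to 8.495 for the remaining pairs.

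All 10 members were lower in the cocultured fibroblasts at an adjusted p below 0.05, and 8 of them, all but B2m and H2-D1, were also past the threshold. Across all genes tested, 7.78% were lower past the threshold, and 20% were lower at an adjusted p below 0.05 alone. The CPM of the groups did not overlap for any of the 10 members, a pattern that 26.1% of all genes tested showed in the lower direction. The median log2 fold change of the members was −1.57, beside 0.0038 for all genes tested. Without cocultured replicate 3 the counts were 10 and 7, Tap2 being the member that no longer passed 2-fold. The steepest falls were those of Psmb9, Tap1 and Psmb10, each over 4-fold, and the smallest those of B2m and H2-D1. In bulk RNA, fewer cells that express a gene and less RNA per cell cannot be told apart.

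**Figure D1:**
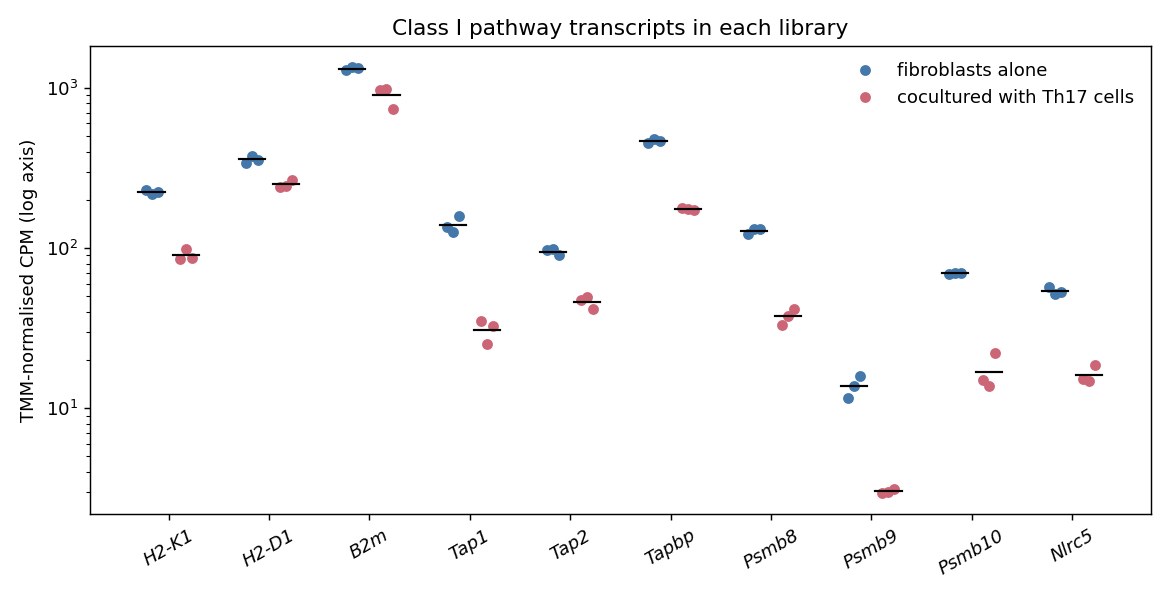
TMM-normalised CPM (log axis) of the 10 genes in the 3 libraries of fibroblasts alone and the 3 libraries cocultured with Th17 cells. Points are libraries and black lines are group means; every cocultured point lies below every point of its gene in fibroblasts alone, with the widest gaps for Psmb9, Tap1 and Psmb10 and the narrowest for H2-D1 and B2m.

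H2-K1 (ENSMUSG00000061232, chr17:33996017-34000333 on mm10) encodes a classical heavy chain, which binds the peptide. Its counts were 2969, 2735 and 2630 in fibroblasts alone and 1144, 1249 and 1145 in coculture. All cocultured libraries were below all libraries alone, and the mean fell from 223 ± 7.20 to 90.1 ± 7.02 CPM (SD, n = 3 per group), a log2 fold change of −1.31 (adjusted p = 1.17e-06 by edgeR, SE 0.072). H2-D1 (ENSMUSG00000073411, chr17:35262730-35267499), the other classical heavy chain, had counts of 4396, 4766 and 4196 alone and 3251, 3116 and 3521 in coculture. The groups did not overlap, but the change was smaller, from 357 ± 17.8 to 251 ± 14.3 CPM (SD, n = 3 per group), with a log2 fold change of −0.51 (adjusted p = 0.000325 by edgeR, SE 0.066). B2m (ENSMUSG00000060802, chr2:122147686-122153083) encodes the shared light chain and lies outside the MHC. Its counts were 16617, 17048 and 15682 alone and 13081, 12522 and 9740 in coculture, with cocultured replicate 3 the lowest. The mean fell from 1321 ± 28.9 to 899 ± 137 CPM (SD, n = 3 per group), a log2 fold change of −0.55 (adjusted p = 0.00227 by edgeR, SE 0.101).

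The light chain and the 2 classical heavy chains were also compared within each library. The ratio of B2m FPKM to the summed FPKM of H2-K1 and H2-D1 was 10.6, 10.4 and 10.6 alone and 12.6, 12.4 and 8.77 in coculture. The cocultured libraries lay on both sides of the libraries alone, and the log2 ratio differed by 0.08 (two-sided exact permutation p = 0.8). With counts in place of FPKM, which weights the 2 heavy chains differently, the difference was 0.20. On FPKM, the direction of this difference turned when cocultured replicate 1 (−0.02) or cocultured replicate 2 (−0.0015) was left out. The FPKM of H2-K1 carries an implied length of 7271 bases in a span of 4317, which lowers its weight in the sum. Leaving out libraries was not tried with counts.

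The transporter and the loading factor fell as well, by unequal amounts. Tap1 (ENSMUSG00000037321, chr17:34187553-34197225), an ATP-binding subunit of the transporter, had counts of 1737, 1598 and 1863 alone and 471, 321 and 426 in coculture. Every cocultured library was below every library alone by a wide margin, and the mean went from 140 ± 16.2 to 30.9 ± 5.08 CPM (SD, n = 3 per group), a log2 fold change of −2.17 (adjusted p = 2.11e-06 by edgeR, SE 0.131). Tap2 (ENSMUSG00000024339, chr17:34203527-34216321), its partner subunit, had counts of 1254, 1242 and 1064 alone and 637, 628 and 544 in coculture. The groups did not overlap, and the mean went from 95.1 ± 4.50 to 46.0 ± 4.14 CPM (SD, n = 3 per group). The log2 fold change of Tap2 was −1.05 (adjusted p = 1.49e-05 by edgeR, SE 0.085), just past 2-fold, and it was −0.97 without cocultured replicate 3. Tapbp (ENSMUSG00000024308, chr17:33915899-33929288) encodes tapasin, which bridges the transporter and the empty heavy chain. Its counts were 5853, 6041 and 5538 alone and 2392, 2235 and 2269 in coculture, close within each group and far apart between them. The mean went from 467 ± 11.6 to 175 ± 2.63 CPM (SD, n = 3 per group), a log2 fold change of −1.41 (adjusted p = 1.37e-07 by edgeR, SE 0.054).

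The ratio of Tap1 to Tap2 FPKM was 0.632, 0.587 and 0.799 alone and 0.338, 0.233 and 0.357 in coculture. The 2 groups of ratios did not overlap, and the log2 ratio was lower by 1.13 in coculture, with values of −0.58 ± 0.23 and −1.72 ± 0.33 (SD, n = 3 per group). The two-sided exact permutation p was 0.1, the smallest that 3 libraries against 3 allow, and 0.125 after Benjamini-Hochberg adjustment over the 5 ratios compared.

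The 3 immunoproteasome subunits were among the members with the steepest falls. Psmb8 (ENSMUSG00000024338, chr17:34197721-34201454), which takes the place of Psmb5, had counts of 1572, 1668 and 1555 alone and 443, 481 and 550 in coculture. The groups were far apart, and the mean went from 128 ± 5.55 to 37.5 ± 4.46 CPM (SD, n = 3 per group), a log2 fold change of −1.77 (adjusted p = 9.15e-07 by edgeR, SE 0.094). Psmb9 (ENSMUSG00000096727, chr17:34181988-34187764), which takes the place of Psmb6, had counts of 150, 175 and 189 alone and 40, 38 and 41 in coculture. It was the least abundant member, its cocultured libraries were nearly equal, and the mean went from 13.8 ± 2.17 to 3.03 ± 0.081 CPM (SD, n = 3 per group), a log2 fold change of −2.19 (adjusted p = 1.02e-05 by edgeR, SE 0.167). Psmb10 (ENSMUSG00000031897, chr8:105935728-105938392), which takes the place of Psmb7 and lies outside the MHC, had counts of 883, 885 and 826 alone and 201, 175 and 290 in coculture. Cocultured replicate 3 was the highest of its group and still below every library alone. The mean went from 69.4 ± 0.777 to 16.9 ± 4.49 CPM (SD, n = 3 per group), a log2 fold change of −2.04 (adjusted p = 1.05e-05 by edgeR, SE 0.156).

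The constitutive subunits that these replace did not pass the test. Psmb5 had counts of 500, 537 and 513 alone and 470, 525 and 719 in coculture (log2 fold change 0.07, SE 0.148). Psmb6 had 998, 935 and 919 alone and 729, 846 and 1356 in coculture (−0.03, SE 0.196), and Psmb7 had 1237, 1240 and 1209 alone and 1359, 1304 and 1657 in coculture (0.15, SE 0.092). For all of them cocultured replicate 3 was the highest library of all 6.

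Each inducible subunit was therefore set against its constitutive counterpart within the same library, where library scaling cancels. The ratio of Psmb8 to Psmb5 FPKM was 0.712, 0.703 and 0.686 alone and 0.213, 0.207 and 0.173 in coculture. That of Psmb9 to Psmb6 was 0.0741, 0.0923 and 0.101 alone and 0.0270, 0.0221 and 0.0149 in coculture. That of Psmb10 to Psmb7 was 2.001, 2.001 and 1.92 alone and 0.415, 0.376 and 0.491 in coculture. No ratio overlapped between the groups, and the log2 ratios were lower in coculture by 1.83, 2.09 and 2.22, in that order. Each two-sided exact permutation p was 0.1, the smallest this design allows (adjusted p = 0.125 over 5 ratios). The ratios compare transcripts, and neither the subunit proteins nor the proteasomes they form were measured. The absolute size of a ratio depends on the gene lengths behind the FPKM values, whereas for a ratio of 1 gene to 1 gene the difference between the groups does not.

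**Figure D2:**
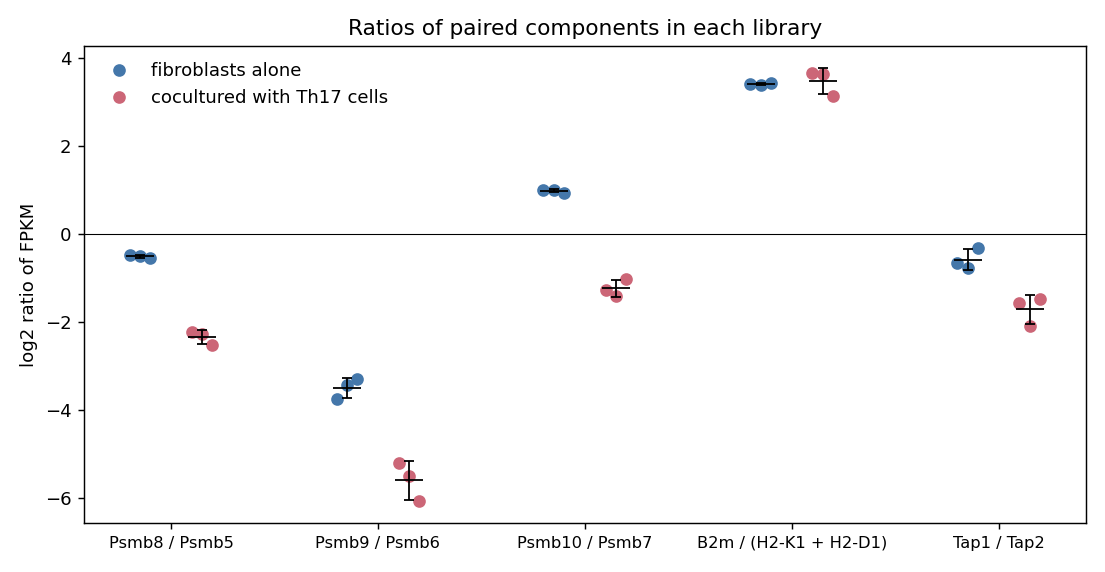
Log2 ratio of FPKM for 5 pairs of components in each library, with fibroblasts alone on the left and cocultured fibroblasts on the right of each pair. Points are libraries and black bars are means with SD (n = 3); the immunoproteasome to constitutive ratios and Tap1 to Tap2 are lower in all cocultured libraries, whereas B2m to the heavy chains overlaps between the groups.

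Nlrc5 (ENSMUSG00000074151, chr8:94472763-94527272), the class I transactivator, had counts of 739, 651 and 627 alone and 205, 189 and 244 in coculture. The groups did not overlap, and the mean went from 53.9 ± 3.07 to 16.2 ± 2.04 CPM (SD, n = 3 per group), a log2 fold change of −1.73 (adjusted p = 2.40e-06 by edgeR, SE 0.106).

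Levels between genes were compared per kilobase of annotated exon (CPM per kb), since longer transcripts collect more fragments. In fibroblasts alone B2m stood at 1536 CPM per kb, far above H2-D1 at 139, Tapbp at 129 and H2-K1 at 75.9. Psmb10 followed at 40.7, Psmb8 at 38.0, Tap1 at 25.5 and Tap2 at 25.2, and Nlrc5 at 6.35 and Psmb9 at 3.77 were lowest. Only Tap1 and Tap2 overlapped among neighbours in this order, and H2-D1 and Tapbp were separated by less than 1 CPM per kb between their nearest libraries. In coculture B2m at 1045 CPM per kb and H2-D1 at 97.5 remained on top, followed by Tapbp at 48.3 and H2-K1 at 30.7. Tap2 at 12.2, Psmb8 at 11.1 and Psmb10 at 9.92 overlapped among their libraries, and Tap1 at 5.64, Nlrc5 at 1.91 and Psmb9 at 0.827 came last. Tap1 thus stood level with Tap2 in fibroblasts alone and below it in each cocultured library.

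Of 26 other class I and class I-like heavy chain genes in the table, 18 were tested. Past the threshold, 11 were lower and 1 was higher, beside 7.78% lower and 3.87% higher among all genes, and the median log2 fold change was −1.20. H2-T24 fell most among them, from counts of 376, 467 and 365 to 82, 77 and 78 (log2 fold change −2.42, SE 0.126). H2-Q5 (−2.17), H2-Q6 (−1.86), H2-T23 (−1.68), which encodes the Qa-1 chain that presents signal peptides of other class I molecules, H2-Q4 (−1.53) and H2-Q7 (−1.52) fell too, each with an adjusted p of 2.50e-05 or below. The genes with the 30-base element shown above did not share 1 size of change, since H2-D1 had −0.51 and H2-Q6 had −1.86.

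Against this direction, Mr1, which presents microbial vitamin metabolites, rose from 437, 451 and 418 counts to 749, 630 and 653 (log2 fold change 0.56, adjusted p = 0.000559 by edgeR, SE 0.080). H2-M9 passed as higher on few counts, 4, 0 and 0 alone and 11, 17 and 14 in coculture. Cd1d1, which presents lipids, had a log2 fold change of 0.26 that did not pass (adjusted p = 0.304).

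Heavy chain genes vary between mouse strains, and mm10 is built from C57BL/6J, whereas Balb/c is the strain that the methods name. The effect of this on the counts of single heavy chain rows was not tested. Heavy chain rows also share sequence, and the handling of fragments matching more than 1 gene was not given in the sources used here. Of the 75-base stretches of H2-D1 transcripts, 6.15% also occurred in another gene, most of them in H2-Q1 (4.84%), and 1.12% of those of H2-K1 did. When the 16 classical and H2-Q and H2-T rows were summed before the fit, the sum was lower by 1.14 on the log2 scale in coculture. Within that sum H2-D1 held 26.7% to 28.7% of the counts alone and 41.2% to 45.3% in coculture, while H2-Q4 went from 18.4% to 19.4% down to 13.1% to 15.8%. H2-K1 held 16.5% to 18.0% alone and 14.7% to 16.5% in coculture. These shares were looked at after the fold changes had been seen.

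**Figure D3:**
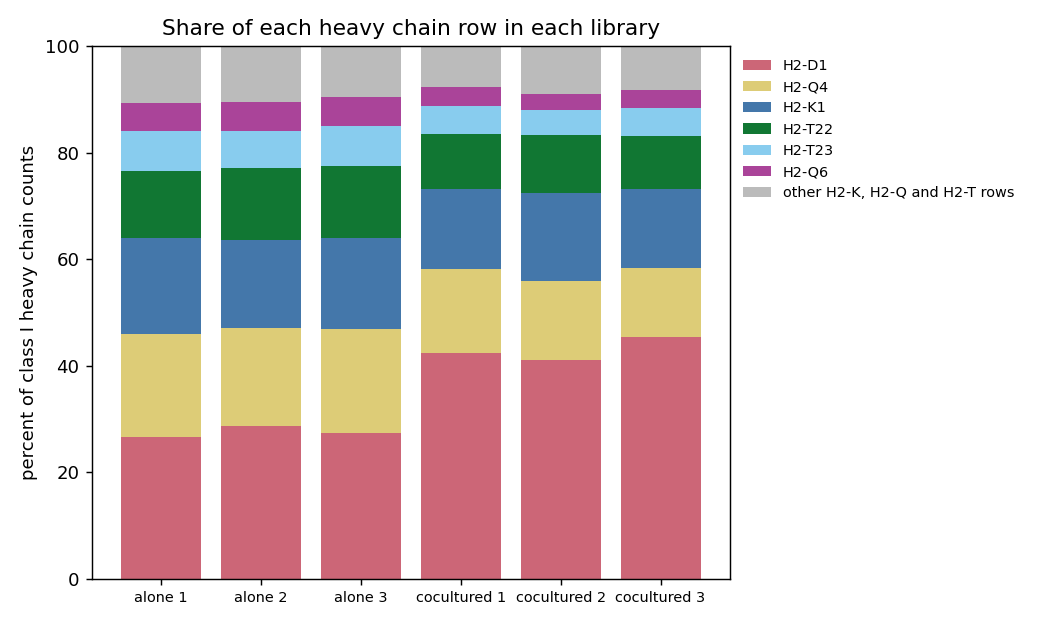
Percent of the counts of 16 class I heavy chain rows taken by each row in each library, stacked to 100%. H2-D1 takes 26.7% to 28.7% in the libraries alone and 41.2% to 45.3% in the cocultured libraries, and H2-Q4, H2-T22, H2-T23 and H2-Q6 take less in each cocultured library than in any library alone.

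Of 16 genes tested that trim and load peptides, 1 was lower past the threshold and none higher, close to the 7.78% and 3.87% of all genes, and at an adjusted p below 0.05 alone 3 were lower and 4 higher, beside 20% lower and 17.1% higher among all genes (median log2 fold change −0.06). The gene past the threshold was Erap1, the aminopeptidase that trims class I peptides in the endoplasmic reticulum. Its counts went from 1326, 1255 and 1237 to 686, 590 and 654 (log2 fold change −1.06, adjusted p = 3.61e-06 by edgeR, SE 0.069). The cytosolic peptidases Ide (0.35), Thop1 (0.34) and Tpp2 (0.18) and the chaperone Calr (0.22) rose by small amounts. The chaperones Canx (0.13) and Hspa5 (0.06) did not pass, and the counts of Hspa5 spread widely, from 8179 in replicate 3 alone to 22487 in cocultured replicate 3.

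None of the 14 constitutive subunits of the catalytic core was past the threshold, where the shares of all genes were 7.78% lower and 3.87% higher, so a count of 0 is near that background, and the median log2 fold change was 0.09, with Psma2 (0.26) and Psma6 (0.18) higher at an adjusted p below 0.05. The core subunits with values below 0, Psma3, Psma4, Psma5, Psmb2, Psmb4 and Psmb6, ranged from −0.13 to just under 0, and none of them passed. Of the 21 genes of the regulatory particle that unfolds substrates, 16 were higher at an adjusted p below 0.05, beside 17.1% of all genes, and none was past 2-fold (median 0.33). Psmc2 (0.46) and Psmd11 (0.44) are examples, and Psmd9 was the only one below 0 (−0.18, adjusted p = 0.167).

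Among 10 activators and assembly factors, the interferon-inducible activator subunits Psme1 and Psme2 fell without reaching 2-fold. Psme1 went from 970, 1026 and 923 counts to 519, 525 and 599 (log2 fold change −0.90, SE 0.082) and Psme2 from 457, 469 and 397 to 249, 225 and 286 (−0.87, SE 0.104). The assembly factor Psmg4 was also lower (−0.70, adjusted p = 0.00736 by edgeR), and the activator Psme4 was higher (0.37, adjusted p = 0.00377 by edgeR). At an adjusted p below 0.05 alone, 3 of the 10 were thus lower and 1 was higher, near the 20% and 17.1% of all genes tested. Pomp, which helps assemble the core (0.17), Psme3 (0.16) and Psmg3 (0.18) lay above 0 and did not pass.

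**Figure D4:**
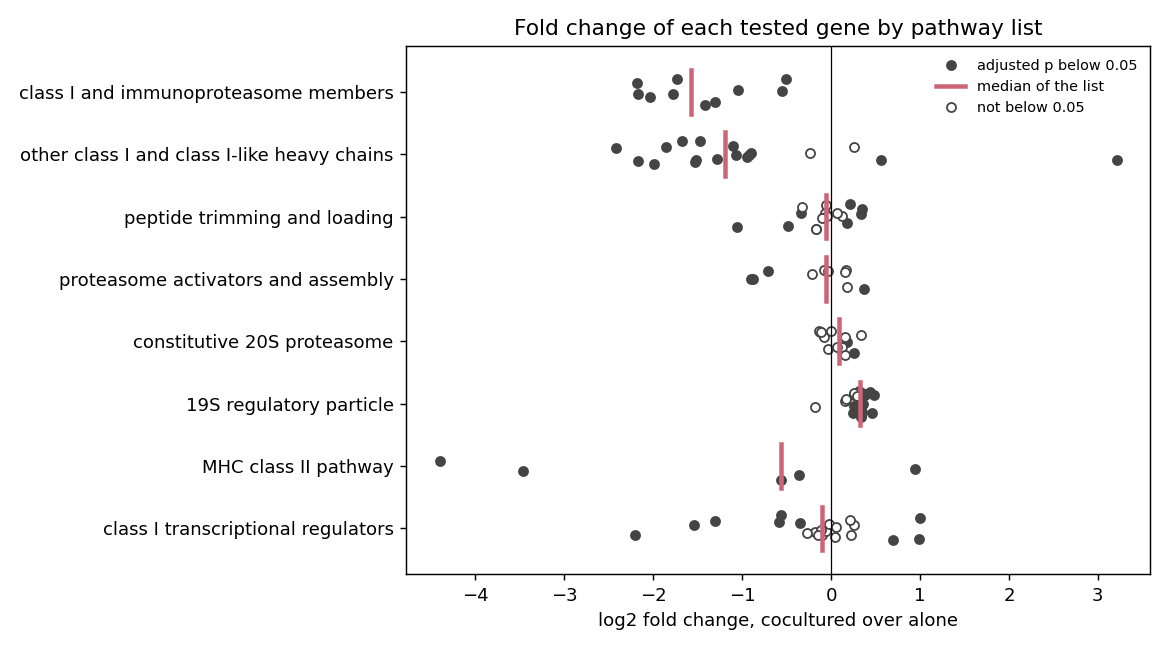
Fitted log2 fold change (cocultured over alone) of each tested gene in 8 pathway lists. Filled points have an edgeR adjusted p below 0.05, open points do not, and red bars are list medians; the class I and immunoproteasome members and the other heavy chains have medians of −1.57 and −1.20, and the constitutive core and the regulatory particle have medians of 0.09 and 0.33.

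Of 21 known regulators of class I genes tested, 3 were lower past the threshold and none was higher, beside 7.78% and 3.87% of all genes. At an adjusted p below 0.05 alone 6 were lower and 3 higher (median −0.11), shares not far from the 20% and 17.1% of all genes. Irf1, an interferon-inducible factor that activates class I promoters, went from 533, 542 and 521 counts to 239, 169 and 172 (log2 fold change −1.54), and Stat2 went from 5719, 5725 and 5252 to 2622, 2351 and 2155 (−1.30). Rfx5, a subunit of the complex through which Nlrc5 acts, was lower by a smaller amount (−0.56, adjusted p = 0.00458 by edgeR). Irf9 (−0.59, adjusted p = 0.000372 by edgeR) and Stat3 (−0.34, adjusted p = 0.00271 by edgeR) were also lower without reaching 2-fold.

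The regulators that rose were Nfkb1, a subunit of the factor that binds kappa B sites (0.996, adjusted p = 1.85e-06), the interferon-γ receptor chain Ifngr2 (0.99, adjusted p = 1.86e-06) and Socs1, an inhibitor of JAK signalling (0.70, adjusted p = 0.00663). Nfkb1 and Ifngr2 lay just under 2-fold. Nfya (0.26), Nfyb (0.21), Rfxank (0.22), Ptpn2 (0.06) and Rela (0.04) lay above 0 and did not pass.

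Most of the MHC class II pathway was not detected. Of its 13 genes 8, among them H2-Aa, H2-Eb1 and the transactivator Ciita, had 0 counts in all 6 libraries, which allows up to 3 counts or 0.223 to 0.254 CPM in a library. Of the 5 tested, Ctss, a protease of antigen presenting cells, had 51, 32 and 44 counts alone and 3, 1 and 2 in coculture, and Cd74, the invariant chain, had 13, 11 and 11 alone and 1, 2 and 0 in coculture. Both were lower past the threshold, beside 7.78% of all genes tested. At an adjusted p below 0.05 alone, 4 of the 5 were lower and 1 was higher, beside 20% and 17.1% of all genes tested. Ifi30, the most abundant of the 5, fell from 80.5 to 54.4 CPM (log2 fold change −0.57, adjusted p = 0.000183 by edgeR). H2-DMa went the other way, from 42, 36 and 49 to 81, 95 and 82 counts (log2 fold change 0.95, adjusted p = 0.00462 by edgeR, SE 0.195).

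Markers of other cells were also looked at, and they did not all move in the same direction. The summed level of 22 macrophage and dendritic cell markers was 70.3 to 71.9 CPM alone and 26.0 to 27.1 CPM in coculture, and 7 of the 10 tested were lower past the threshold, beside 7.78% of all genes. Lyz2 had 358, 337 and 337 counts alone and 49, 44 and 38 in coculture, Adgre1 went from 71, 47 and 55 to 0 in all 3 libraries, and Ptprc from 14, 12 and 11 to 0 in all 3 libraries. Cd14 did not pass, with 151, 140 and 127 counts alone and 129, 140 and 170 in coculture. Macrophages express class I and immunoproteasome genes, and the part of such cells in the falls was not tested. Of 20 T cell markers, 7 were at 0 in all libraries, and the summed level was 8.92 to 10.11 CPM alone and 5.81 to 6.77 CPM in coculture. Il17a and Cd3d were at 0 throughout, and Cd3e had at most 6 counts in a library. Trac had 20, 40 and 38 counts alone and 41, 27 and 38 in coculture, and Icos had 8 to 14 counts in each library. Lck was lower past the threshold, with 49, 68 and 59 counts alone and 33, 34 and 23 in coculture (log2 fold change −1.04, adjusted p = 0.00755).

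Of the 6 B cell markers only Pax5 was tested, and their summed level was 2.69 to 15.99 CPM alone and 0.913 to 2.08 CPM in coculture. The 10 endothelial markers summed to 123 to 131 CPM alone and 272 to 309 CPM in coculture, nearly all of it Flt1, which went from 1453, 1533 and 1383 to 4067, 3857 and 3513 counts. Kdr, the other endothelial marker past the threshold, was lower, with 65, 74 and 68 counts alone and 2, 1 and 2 in coculture, and Pecam1 and Egfl7 did not pass. The 12 epithelial markers summed to 19.9 to 22.1 CPM alone and 4.64 to 5.50 CPM in coculture. Most of the sum alone was Krt19, which went from 198, 171 and 203 to 33, 39 and 25 counts. Of the 4 tested, Krt19 and Lrp2 were lower past the threshold, beside 7.78% of all genes, and Krt18 and Slc12a1 did not pass. Umod, Aqp2 and Slc34a1 were at 0 in all libraries. The part of these cell types in the results was not tested.

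The position of the members was examined last. Psmb9, Tap1, Psmb8 and Tap2 are consecutive tested genes on chromosome 17, and all of them were lower past the threshold. On either side of this block, H2-DMa was higher (log2 fold change 0.95) and H2-Ab1 was lower by a smaller amount (−0.36, adjusted p = 0.0398). Next to H2-K1, the heavy chain gene H2-K2 was lower (−1.29) and Ring1 did not pass (−0.10, adjusted p = 0.522). Next to H2-D1, Ddx39b (−0.26) and H2-Q1 (−0.93) were lower.

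By start position, the nearest tested genes to Tapbp were Daxx and Zbtb22. Daxx fell from 140 to 44.9 CPM (−1.64, SE 0.065, adjusted p = 1.64e-07 by edgeR), and Zbtb22 rose (0.46, adjusted p = 0.0117). Zbtb22 lies inside the span of Tapbp, at chr17:33915904-33919324, so the gene beyond the far end of Tapbp was not examined. The overlap is 3421 bases on the same strand, with 179 to 294 counts a library for Zbtb22 against 2235 to 6041 for Tapbp. Psmb9 and Tap1 overlap by 212 bases on opposite strands, and whether counting used the strand was not given in the sources used here. Outside the MHC, the neighbours of B2m, Spg11 (0.10) and Trim69 (−1.0003, adjusted p = 0.126), did not pass. Those of Nlrc5, 9330175E14Rik (−0.40) and Cpne2 (0.12), did not pass either. Of the neighbours of Psmb10, Pskh1 was higher (0.30) and Lcat was lower on few counts (−1.19, adjusted p = 0.0197).

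**Figure D5:**
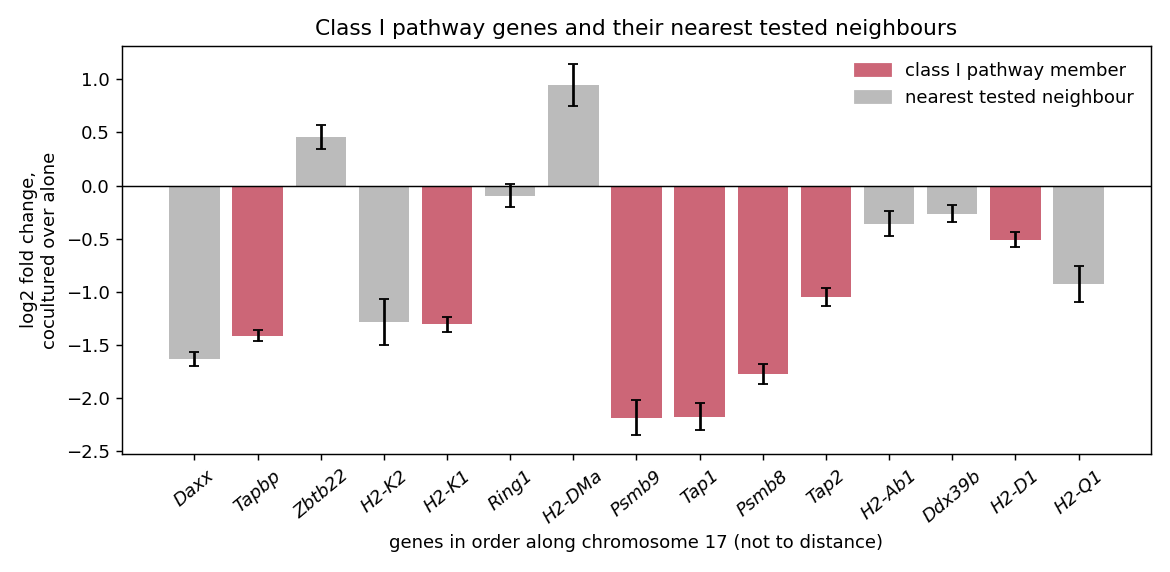
Log2 fold change (cocultured over alone) with SE of the chromosome 17 members and their nearest tested neighbours, both in order of start position and not to distance. Red bars are members and grey bars are neighbours; Psmb9, Tap1, Psmb8 and Tap2 form a run of lower genes between H2-DMa, which is higher, and H2-Ab1, which is lower by 0.36.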

How the data were processed

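Fibroblast total RNA was sequenced on an Illumina NovaSeq after library preparation with VAHTS reagents. According to the submitters' processing notes and the study's methods, the authors aligned reads to mm10 with HISAT2 2.0.4 and counted them per gene with StringTie 1.3.3b, and they used edgeR. The authors deposited raw counts and, beside them, FPKM values, which carry a gene length and a library total. Over 10223 genes with at least 50 counts in every library, FPKM times the library total over the count gave 1 gene length within 1%. Lengths implied by the deposited FPKM exceeded the genomic span in 7.75% of 10205 genes, H2-K1, Tap1, Psmb8 and Psmb9 among them, so levels between genes are given as CPM per kb of GENCODE exon. The deposited table's columns were matched to samples by their descriptions and groups were taken from titles.

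Counts were tested with edgeR 4.0.16 in R 4.3.3 (TMM, filterByExpr with a minimum count of 10, quasi-likelihood F test, Benjamini-Hochberg over 13088 genes), without covariates, with the thresholds of the study's methods. Ratios of FPKM were compared with two-sided exact permutation tests in scipy 1.17.1. Alternatives used DESeq2 1.42.0, other scalings and filters, a replicate block, limma 3.58.1 on log2(FPKM + 1), leave-one-out fits and summed class I rows. The scripts were tested on simulated data. A count of 3 corresponds to 0.223 to 0.254 CPM, and this bound for genes at 0 covers counting error only. The SE and p-values of edgeR also include the spread between libraries. Motifs were searched on both strands in RefSeq promoters of GRCm38.p6.

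The members and gene lists were chosen with earlier results of these data known. The named genes were all members, their constitutive counterparts, up to 6 genes past the threshold per list (those with at least 100 counts on average first), genes opposite in direction to most of their list and nearest tested neighbours. Marker genes, H2-T22, Ifi30, Irf9, Psma2, Psma6, Psmc2, Psmd11, Psme1, Psme2, Psmg4, Rfx5 and Stat3 were named beyond that rule, after their values were seen. The values of 1 gene past the threshold in the regulator list are not reported here.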

Additional observations from a re-analysis of the deposited data

How the results depend on the processing

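Over 15 alternatives, 7 to 8 members were lower past the threshold and 9 to 10 were lower at an adjusted p below 0.05, where the count of 9 came from summing the class I rows, which merges the 2 heavy chains. Tap2 dropped below 2-fold with library size only (−0.98), with limma (−0.91) and without cocultured replicate 3 (−0.97). The members' median was −1.18 with limma on log2(FPKM + 1), whose pseudocount shrinks low genes, −1.73 with summed class I rows and −1.62 to −1.54 in the leave-one-out fits. With summed rows the value for H2-D1, then that of the sum, was −1.14.

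Other heavy chains lower past the threshold numbered 6 with limma and 2 with summed rows, which leaves fewer genes to call. Higher ones numbered 2 with no filter, 0 with at least 10 counts in every library, 0 with limma and 1 to 2 in the leave-one-out fits. For trimming and loading the lower count was 0 with library size only and 0 with limma. For class II the lower count was 0 with at least 10 counts in every library and 1 with limma, and the higher count was 1 with library size only and 0 to 1 in the leave-one-out fits. Regulators higher past the threshold numbered 2 with library size only, 1 each with upper quartile factors, with at least 10 counts in every library and with limma, and 0 to 2 in the leave-one-out fits. Beyond the constructions named, the causes were not tested.

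With log2(FPKM + 1) the Psmb9 to Psmb6 difference was −1.05. On FPKM, the B2m to heavy chain difference reversed without cocultured replicate 1 (−0.0155) and cocultured replicate 2 (−0.0015), with a leave-one-out range of −0.0155 to 0.248. This difference was 0.199 with counts in place of FPKM, where leaving out libraries was not tried. Libraries with the same replicate number showed no shared deviation from their group means (correlations −0.026 to 0.016). These values cannot tell if such libraries share a mouse or culture. With a replicate block 8 members were lower past the threshold with a median of −1.57, and no call of a member changed. Across all genes, limma called 400 lower and 222 higher genes, against 1017 and 506 with edgeR over 13079 symbols, and at least 10 counts in every library gave 706 and 357. With 3 libraries a group, no ratio can pass 0.05 in the exact test, and low genes such as Psmb9, H2-M9 and Cd74 are limited by their counts.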

Other observations

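The lengths implied by the deposited FPKM values were longer than the genes' own spans for several genes described above. H2-K1 had an implied length of 7271 bases in a span of 4317 bases, Tap1 had 11741 in 9673, Psmb8 had 3848 in 3734, Psmb9 had 6303 in 5777 and Psmb6 had 3107 in 2492. For B2m the implied length and the exon length were both 860 bases. Over 10205 genes the implied length was a median of 1.25 times the exon length. Ranks of genes by the deposited FPKM therefore differ from ranks per exon length. Psmb10 stood above H2-K1 by FPKM in fibroblasts alone (53.5 against 30.0) and below it per kb of exon (40.7 against 75.9 CPM per kb).

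One heavy chain gene outside the tests, H2-M1, had 0 counts in all 3 libraries of fibroblasts alone and 19, 8 and 14 counts in coculture.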
